A study of Mus musculus with 2 samples.

Results

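The matrix-rich tumour barcodes were the 10% of Hmga2-positive barcodes with the highest levels of 5 genes, Col3a1, Fbn1, Col6a1, Col6a2 and Il1rl1, in CT26 tumours of BALB/c mice. There were 451 of them among 4511 barcodes that passed a gate for tumour cells, and 32516 barcodes in all. The WQ-2101 library held 315 of the 451 and the vehicle library 136. A barcode is the tag of 1 droplet, and levels are counts of unique molecular identifiers (UMIs) per 1000000 UMIs (CPM), summed over all barcodes of a class. The gate required at least 3000 UMIs, at most 15% mitochondrial UMIs, at least 3 UMIs and 200 CPM of Hmga2, no UMI of the leukocyte gene Ptprc and at most 1 UMI of the fibroblast genes Dcn and Lum together. The score was the mean of ln(1 + UMIs per 10000) of the 5 genes, and the top 10% was taken over both libraries pooled. Since these measured values chose the members, every comparison of members with the other 4060 gated barcodes is a description, with no test.

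The study concerns colorectal tumours, their macrophages and PD-1 blockade when PHGDH, which starts the synthesis of serine from glucose, is inhibited. CT26 is a mouse colon carcinoma line, and its cells were grown under the skin of wild type BALB/c mice aged 5 weeks. Mice of the first group received WQ-2101, an inhibitor of PHGDH, at 20 mg/kg into the abdominal cavity once a day from a tumour size of about 100 mm3, mice of the second received vehicle, and whole tumours were dissociated on day 17. Each treatment has 1 droplet library. How many mice went into each library is not stated in the labels used here. Differences between the treatments therefore cannot be told apart from differences between 2 libraries, no p-value was computed, and the 95% intervals given cover counting error only. The libraries held 18142 barcodes and 185587327 UMIs (WQ-2101) and 14374 barcodes and 184754398 UMIs (vehicle). They shared 73 barcode sequences, none of them a member.

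Collagens are the main fibrous proteins of the space between cells. Collagen III, encoded by Col3a1, builds fibrils together with collagen I, collagen VI (Col6a1, Col6a2) forms beaded filaments close to the cell surface, and fibrillin-1 (Fbn1) forms the microfibrils on which elastic fibres grow and to which latent TGF-beta is bound. Il1rl1 encodes ST2, the receptor of the alarmin interleukin 33, which is known best from mast cells, type 2 innate lymphoid cells and regulatory T cells. Carcinoma cells that have lost epithelial features often make such matrix themselves, next to the fibroblasts of the tumour.

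The starts of 3 of the 5 score genes are shown because these genes define the members. The RefSeq promoter table (GRCm38.p6), which covers 250 bases before and 50 bases after each annotated start, matched 5 of 5 score genes with 7 starts. Capitals mark matches, on either strand, to a TATA box (TATAAA), an AP-1 site (TGANTCA) or a TEAD site (GGAATG). The first is Col3a1 at chr1:45311288-45311587, plus strand, the second the downstream of both listed Il1rl1 starts at chr1:40439379-40439678, plus strand, and the third Col6a1 at chr10:76725995-76726294, minus strand.
Col3a1: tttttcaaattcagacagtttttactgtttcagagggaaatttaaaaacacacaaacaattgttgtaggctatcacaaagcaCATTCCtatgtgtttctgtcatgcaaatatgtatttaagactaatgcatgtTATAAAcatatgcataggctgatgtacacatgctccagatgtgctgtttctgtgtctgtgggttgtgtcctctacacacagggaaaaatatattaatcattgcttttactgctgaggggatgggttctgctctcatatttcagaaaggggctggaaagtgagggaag
Il1rl1: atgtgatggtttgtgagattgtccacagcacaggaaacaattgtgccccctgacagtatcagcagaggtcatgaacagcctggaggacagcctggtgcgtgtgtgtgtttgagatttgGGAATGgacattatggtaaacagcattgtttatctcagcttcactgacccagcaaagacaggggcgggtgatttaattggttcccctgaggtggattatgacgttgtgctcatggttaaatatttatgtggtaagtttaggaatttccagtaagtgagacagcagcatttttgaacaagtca
Col6a1: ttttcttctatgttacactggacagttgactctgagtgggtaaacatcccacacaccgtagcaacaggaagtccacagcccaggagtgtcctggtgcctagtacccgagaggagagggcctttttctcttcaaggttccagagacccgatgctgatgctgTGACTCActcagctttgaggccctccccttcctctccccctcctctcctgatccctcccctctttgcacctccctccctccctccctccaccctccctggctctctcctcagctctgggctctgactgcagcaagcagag
Col3a1 held a TEAD match at -168 and a TATA match at -117 from the RefSeq start, Il1rl1 a TEAD match at -132, and Col6a1 an AP-1 match at -90. None of the matches overlapped another. Of 32851 mouse promoters in the table, 14.66% held the TEAD letters, 13.62% the TATA letters and 7.808% the AP-1 letters. No set of letters was shared by all 5 genes, and the Fbn1 window held none of the 3 motifs. In mouse, the upstream start of Il1rl1 is known from mast cells and the downstream one from fibroblasts; the deposited counts give 1 value per gene and do not separate them. Col6a2 (76595762 to 76623630, minus strand) and Col6a1 (76708792 to 76726168, minus strand) lie near each other on chromosome 10. On chromosome 1, Il1rl1 spans 40429570 to 40465415 and Col3a1 45311538 to 45349706, both on the plus strand, and on chromosome 2 Fbn1 spans 125300594 to 125507993 on the minus strand (GENCODE vM21, GRCm38).

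The label of the barcodes as tumour cells rested on Hmga2, a chromatin protein of embryonic tissue that is active in CT26. Hmga2 stood at 1274 CPM in WQ-2101 members and 1159 CPM in vehicle members, against 1165 and 1060 CPM in the other gated barcodes of those libraries. Of the other 5 CT26 markers listed, Krt8, Krt18 and Trap1a had 0 UMIs in the members of both libraries. In members, 3 UMIs would be 0.753 CPM in WQ-2101 and 1.80 CPM in vehicle. Krt7 had 0 UMIs in vehicle members and 0.251 CPM in WQ-2101 members. Cd24a stood at 0.753 CPM in WQ-2101 members and 2.40 CPM in vehicle members. These 5 markers were as low in the other gated barcodes, at 2.70 CPM or less.

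Of the markers of the mesenchymal state, Vim and Zeb2 stood at 444 CPM or more in both classes of both libraries, and some markers stood higher in members. The list had medians of 0.32 in WQ-2101 and 0.29 in vehicle, on the log2 scale of CPM + 5, members over other barcodes. After thinning to 3000 UMIs, 19.7 and 24.3% of members were in the top 10% of gated barcodes for it, against 7.42 and 11.6% of the others. Vim, the intermediate filament gene of mesenchymal cells, was high in both classes and not higher in members: 2691 CPM against 2858 CPM in the other barcodes of the WQ-2101 library, and 3346 CPM against 3508 CPM in the vehicle library. Of 18 transition factors and markers, 13 were measurable in the WQ-2101 library, and Snai2 and Zeb2 passed 1.5-fold. In the vehicle library 14 were measurable, and Acta2, Snai2 and Zeb2 passed. Snai2, which represses epithelial genes, had 58.0 CPM in members and 34.9 CPM in other barcodes of the WQ-2101 library, and 38.4 and 13.7 CPM in the vehicle library. Zeb2, a factor of the same kind, had 783 and 506 CPM in the WQ-2101 library and 788 and 444 CPM in the vehicle library. Twist1 was nearly level, at 84.6 and 79.0 CPM in the first library and 104 and 86.4 CPM in the second. The members are called matrix-rich below, after the genes that chose them.

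The gate removed most Hmga2-positive barcodes, and it did so unevenly. Of 7463 WQ-2101 and 5783 vehicle barcodes that met every other criterion, the limit on Dcn and Lum removed 58.8% and 75.2%. Nearly all of the removed barcodes, 99.3% in WQ-2101 and 99.2% in vehicle, had no UMI of Lum, so the limit acted through Dcn. Barcodes removed with 10 or more Dcn UMIs and at most 1 of Lum had 1385 CPM of Hmga2 in WQ-2101 and 1317 CPM in vehicle, and 2.5 and 11.4 CPM of Postn, a marker of tumour fibroblasts. Hmga2-negative, Dcn- or Lum-rich barcodes, used as a fibroblast reference (31 in WQ-2101, 73 in vehicle), had 1480 and 3703 CPM of Postn and 345 and 333 CPM of Lum. Dcn was thus found in barcodes rich in Hmga2 with far less Postn than the fibroblast reference, while their low Lum was set by the selection. Other gated vehicle barcodes had 2.94 CPM of Postn and 25.1 CPM of Col1a1. Those removed with 2 to 9 Dcn UMIs had 7.13 and 58.6 CPM, and those with 10 or more 11.4 and 96.3 CPM. In WQ-2101, Postn was 1.53, 3.35 and 2.50 CPM over these classes. The part of fibroblast RNA was not tested. The treatment results below are set beside an alternative with Lum limited and Dcn not, chosen after seeing the data.

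**Figure D1:**
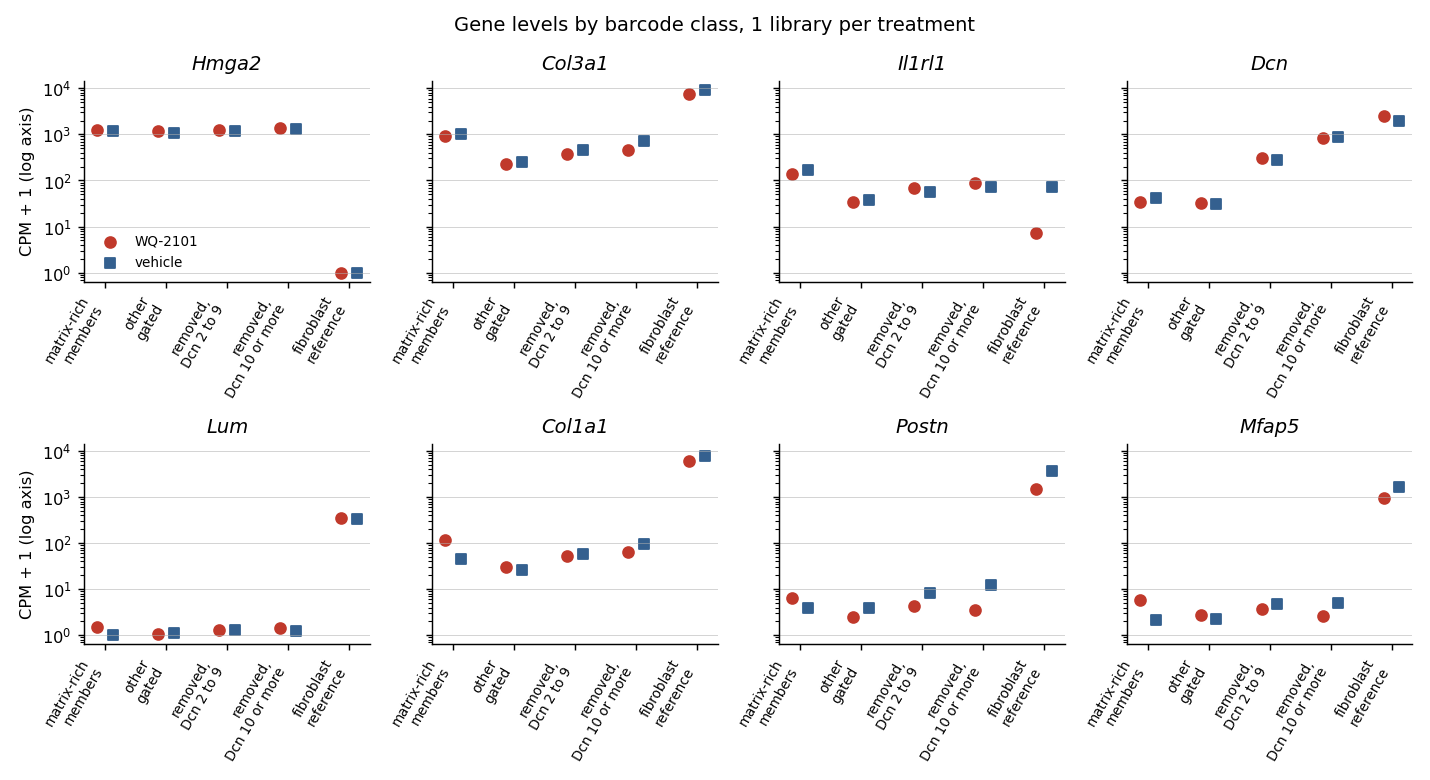
Levels (CPM + 1, log axis) of 8 genes in 5 classes of barcodes; red circles are the WQ-2101 library and blue squares the vehicle library, 1 value per library. Hmga2 lies between 1060 and 1385 CPM in members, other gated barcodes and removed Dcn-positive barcodes. It is 0 by definition in the fibroblast reference. Postn and Mfap5 are high in the fibroblast reference alone among the classes shown, and so is Lum, which the other classes limit to 1 UMI by definition. Barcodes removed with 2 or more UMIs of Lum (6 in WQ-2101, 13 in vehicle) are not shown and had 243 and 1978 CPM of Postn.

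Matrix-rich barcodes made up 10.2% of gated barcodes in WQ-2101 (exact binomial interval 9.19 to 11.4%) and 9.49% in vehicle (8.02 to 11.1%). The ratio was 1.08, with an exact conditional interval of 0.879 to 1.33 that includes 1. This interval covers the counting of barcodes only, and with 1 library per treatment a treatment difference was not tested. Thinning every barcode to 3000 UMIs before scoring gave 1.15 (0.935 to 1.42). Without the limit on Dcn, 622 of 7457 WQ-2101 barcodes (8.34%) and 701 of 5770 vehicle barcodes (12.1%) were members, a ratio of 0.687 (0.615 to 0.766), and 0.732 after thinning. The share ratio thus lay near 1 with the Dcn limit, its interval including 1, and below 1 without it. Of the members chosen without the limit, 29.9% in WQ-2101 and 11.1% in vehicle also met it.

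The cut fell within a continuous range. The lowest member scored 1.263 and the highest barcode outside 1.2628. The 50 members just inside the cut carried 1716 CPM of the score genes together and the 50 barcodes just outside 1700 CPM, against 4915 CPM in the 50 highest. Of the WQ-2101 members 68.9%, and of the vehicle members 64.0%, were again members when scored on 3000 of their UMIs. All 5 score genes were detected in 41.6% of WQ-2101 members and 47.8% of vehicle members, and in 7.85% and 14.1% of the other barcodes.

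The 5 score genes are given as what defined the class. Col3a1 had 931 CPM in WQ-2101 members and 1004 CPM in vehicle members, against 232 and 255 CPM in the other barcodes of the same libraries. Fbn1 had 513 and 435 CPM in WQ-2101 and vehicle members, against 148 and 103 CPM. Col6a1 had 549 and 495 CPM against 172 and 169 CPM, and Col6a2 375 and 330 CPM against 103 and 103 CPM. Il1rl1 had 140 and 165 CPM against 33.1 and 35.8 CPM. The members of both libraries thus stood well above the other barcodes for each gene, as the rule requires, and members of the libraries differed from each other by 1.18-fold or less.

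The 5 transcripts were also higher together when a gene did not choose its own barcodes. The set of 5 was picked with earlier results of these data known, so these ratios are descriptions as well. With members chosen by the other 4 genes, Col3a1 was 2.91 times as high in members as in the rest of the WQ-2101 library and 3.18 times in the vehicle library. For Fbn1 these ratios were 2.71 and 2.87, for Col6a1 2.61 and 2.34, for Col6a2 2.91 and 2.30, and for Il1rl1 1.83 and 2.55. Il1rl1 was the least evenly spread: 45.4% of WQ-2101 members and 49.3% of vehicle members had a UMI of it, against 96.8% or more for each matrix gene. In the other gated barcodes 18.9 and 26.8% had one. Of the T cell reference barcodes 6.56 and 6.71% had one, and of the fibroblast reference barcodes 6.45 and 21.9%. The fibroblast reference held 6.39 CPM of Il1rl1 in WQ-2101 and 70.5 CPM in vehicle. In macrophage reference barcodes 2.37 and 3.10% had one. The median depth of that reference was 6878 UMIs in WQ-2101 and 8546 UMIs in vehicle, below that of the members. Macrophage reference barcodes held 71.2 CPM of the 5 genes together in WQ-2101 and 117 CPM in vehicle, and T cell reference barcodes 99.7 and 108 CPM. Members held 2508 and 2428 CPM, many times the macrophage and T cell values. Fibroblast reference barcodes held more than the members, 9808 CPM in WQ-2101 and 12141 CPM in vehicle. The part of fibroblast RNA in the member values was not tested.

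Other cell types were looked for by their markers. Fibroblast markers, 12 genes, summed to 448 CPM in WQ-2101 members and 343 CPM in vehicle members, against 201 and 188 CPM in the other barcodes and 16499 and 22418 CPM in the fibroblast reference. Apart from the gate genes 4 of them were measurable, of which Col1a1, Col1a2 and Pdgfrb were past 1.5-fold higher in WQ-2101 members and these and Pdgfra in vehicle members; their part in the matrix pattern was not tested. The gate itself holds Dcn and Lum low. Postn and Mfap5, which it does not limit, stood at 5.52 CPM or less in the members of both libraries. In WQ-2101 both were higher in members than in the others, Postn 5.52 against 1.53 CPM and Mfap5 4.77 against 1.78 CPM. In vehicle they were nearly level, Postn 3.00 against 2.94 CPM and Mfap5 1.20 against 1.28 CPM. A UMI of Postn was found in 1.59% of WQ-2101 members. Lrrc15 was at 0 UMIs in vehicle members. Pericyte markers summed to 101 and 89.5 CPM in members and 72.8 and 53.9 CPM in the other barcodes. Macrophage markers were lower in members, 187 and 199 CPM, than in other barcodes, 346 and 233 CPM. Endothelial markers summed to 4.80 CPM or less in members and T cell markers to 8.29 CPM or less. Because Il1rl1 marks mast cells, their genes were read as well: Cpa3, Ms4a2, Mcpt4, Cma1, Tpsb2 and Fcer1a were at 0 UMIs in the members of both libraries. The 6 type 2 innate lymphoid markers summed to 40.4 and 48.6 CPM in members, against 32.6 and 36.2 CPM in the others, and of them Il13 and Il5 were at 0 UMIs in members.

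Depth was level in WQ-2101 and lower for members in vehicle. Their median was 12297 UMIs in WQ-2101 and 11744 in vehicle, against 12231 and 15228 in the other barcodes. Mitochondrial shares were 1.96 and 1.97% in members and 1.95 and 1.87% in the others. Ribosomal protein transcripts were lower in members, 19.7 and 17.1%, than in the others, 22.4 and 20.4%.

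Outside the score, genes were counted when they reached 20 CPM in the higher class and differed by 1.5-fold or more in CPM + 5, a log2 ratio of 0.58. In the WQ-2101 library 295 of 7080 genes were higher in members (4.17%) and 68 lower (0.96%). In the vehicle library 364 of 7114 were higher (5.12%) and 113 lower (1.59%). Both libraries together gave 162 higher genes (2.38% of 6818) and 19 lower genes (0.279%). The 162 were 61.6% of the WQ-2101 genes that could be compared in both libraries and 49.7% of the vehicle genes. All genes had a median log2 ratio of 0.05 in WQ-2101 and 0.08 in vehicle.

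**Figure D2:**
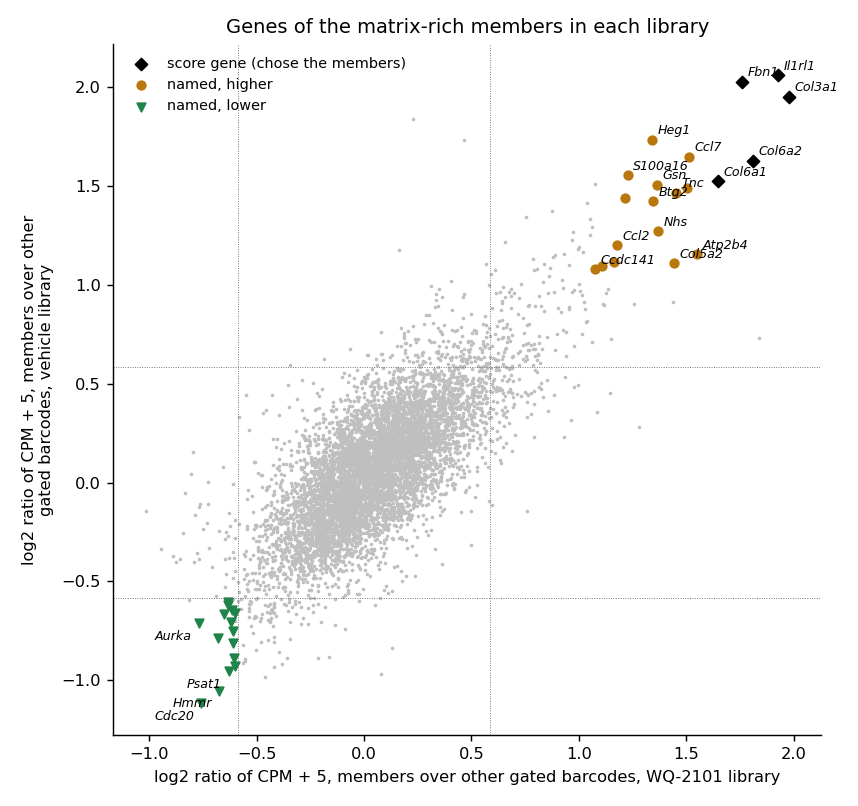
Each point is a gene with 20 CPM or more in either class of both libraries; the axes give its log2 ratio of CPM + 5, members over other gated barcodes, in the WQ-2101 library (across) and the vehicle library (up). Dotted lines mark 1.5-fold; black diamonds are the score genes, which chose the members, orange circles the 15 highest and green triangles the 15 lowest named genes.

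Other fibrillar collagens accompanied the score genes. All 5 measurable genes of this list were higher in members in both libraries, with medians of 1.22 in WQ-2101 and 0.98 in vehicle. Col5a1, whose chain starts the assembly of collagen I fibrils, had 121 and 148 CPM in WQ-2101 and vehicle members against 49.1 and 51.4 CPM in the others. Its partner Col5a2, which lies beside Col3a1 on chromosome 1, had 52.0 and 40.8 CPM against 16.0 and 16.2 CPM, and Col5a3 187 and 218 CPM against 82.5 and 108 CPM. Col1a2, the second chain of collagen I, had 182 and 148 CPM against 86.1 and 81.9 CPM. Col1a1, the main chain of collagen I and a fibroblast marker, had 118 CPM in WQ-2101 members and 45.0 CPM in vehicle members, against 29.3 and 25.1 CPM in the others. Against the other barcodes, Col1a1 was 4.02 times as high in the first library and 1.79 times in the second.

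Other matrix groups moved less. In the list of collagen VI and other microfibril or fibril-associated collagens, Col16a1 passed 1.5-fold in both libraries (74.3 and 99.7 CPM against 46.8 and 63.2 CPM). Col6a3, the third chain of collagen VI, stood at 324 and 357 CPM against 247 and 256 CPM and did not pass. Among elastic fibre genes, Fbln2 and Emilin2 passed in both libraries. Fbln2, a protein that binds fibrillin, had 492 and 540 CPM in members against 308 and 328 CPM. Hyaluronan synthesis and its receptor stood higher together: Has1 had 242 and 228 CPM in members against 135 and 148 CPM, Has2 89.6 and 76.8 CPM against 48.0 and 35.5 CPM, and the receptor Cd44 1394 and 1979 CPM against 926 and 1180 CPM. Vcan, a proteoglycan that binds hyaluronan, had 335 and 314 CPM against 189 and 198 CPM.

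Matricellular proteins, which modulate adhesion without building fibres, had medians of 0.68 in WQ-2101 (6 of 10 higher and 2 lower) and 0.47 in vehicle (4 of 9 higher). Tnc, the adhesion modulator tenascin-C, had 138 and 79.8 CPM in WQ-2101 and vehicle members against 47.3 and 25.7 CPM in the others. Fibroblast reference barcodes held 1020 and 3738 CPM of Tnc. Sparc, a collagen-binding protein, had 1394 and 1242 CPM against 845 and 686 CPM, and fibronectin (Fn1) 322 and 319 CPM against 205 and 167 CPM. Both lower genes of the WQ-2101 library were Spp1 and Igfbp4; Spp1, also abundant in macrophages, had 177 CPM in members against 311 CPM in the others there, and 281 against 252 CPM in vehicle.

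The machinery that makes and exports collagen was closer to level than the collagens. Of 16 measurable collagen processing enzymes, 3 were higher in WQ-2101 members (Adamts2, Loxl1, Loxl2) and 2 in vehicle members (Loxl1, P3h1), where Pcolce2 was lower, with medians of 0.23 and 0.28. Serpinh1, the chaperone of procollagen, had 492 and 424 CPM against 415 and 342 CPM and did not pass. Of 15 secretory pathway genes 1 passed in both libraries, Creb3l2, a transcription factor of collagen export, with 136 and 121 CPM against 86.9 and 78.8 CPM. Genes that supply proline and glycine had medians of -0.25 and -0.17. None of 18 endoplasmic reticulum stress genes passed in either library.

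In the TGF-beta pathway the targets stood higher in members and the ligands and receptors less so. Of the ligands and receptors, 1 of 11 passed in WQ-2101 (the ligand Tgfb2) and 1 of 10 in vehicle (the receptor Tgfbr2), with medians of 0.13 and 0.21. The listed targets had medians of 0.37 and 0.38, with 5 of 15 and 4 of 15 higher; Bhlhe40, Id3 and Junb were among those that passed in both libraries. Bhlhe40, a transcriptional repressor, had 173 and 118 CPM in WQ-2101 and vehicle members against 76.3 and 58.4 CPM in the others. Il1r1, the interleukin 1 receptor, passed in WQ-2101 alone, with 41.4 against 16.0 CPM, and had 22.2 against 14.9 CPM in vehicle. Il1rap, the partner chain that ST2 needs to signal, was nearly level, 188 and 179 CPM against 162 and 134 CPM. Pdgfrb, a receptor of mesenchymal growth factors and also a fibroblast and pericyte marker, had 75.1 and 80.4 CPM in members against 34.5 and 33.01 CPM.

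Notch genes and immediate early genes stood higher beside the matrix genes. For Notch the medians were 0.69 and 0.79, and the ligand Jag1, the receptor Notch2 and the target Hes1 passed in both libraries. Hes1 had 153 and 91.3 CPM in WQ-2101 and vehicle members against 61.2 and 46.4 CPM, and Jag1 57.8 and 54.6 CPM against 34.01 and 25.2 CPM. Immediate early genes, which answer growth factor and stress signals within minutes, had medians of 0.73 and 0.72 with 13 of 21 and 14 of 22 higher. Btg2, an inhibitor of cell division, had 87.4 and 136 CPM against 31.4 and 47.5 CPM, and the AP-1 subunit Fosb 296 and 638 CPM against 145 and 315 CPM. Fos had 687 and 1095 CPM against 307 and 661 CPM, and Egr1 826 and 870 CPM against 393 and 529 CPM. Of these, Fos and Fosb were past 1.5-fold lower in WQ-2101 than in vehicle, both in members and in the others.

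Chemokines that attract monocytes were among the highest named genes. Ccl7 had 311 CPM in WQ-2101 members and 254 CPM in vehicle members, against 106 and 77.6 CPM in the others, and Ccl2, its neighbour on chromosome 11, 602 and 800 CPM against 263 and 345 CPM. Cxcl1, which attracts neutrophils, had 493 and 645 CPM against 240 and 349 CPM. These 3 passed in both libraries, while Ccl5 was past 1.5-fold lower in WQ-2101 members, 12.1 against 22.7 CPM, and stood under 20 CPM in both classes of the vehicle library. Macrophage reference barcodes held more Ccl7, 464 and 693 CPM, and fibroblast reference barcodes more again, 1116 and 1087 CPM. T cell reference barcodes held 19.2 and 17.3 CPM. The part of RNA from other cells in the Ccl7 of members was not tested.

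The other named higher genes were few in kind. Gsn, the actin-severing protein gelsolin, had 348 and 368 CPM in members against 132 and 126 CPM. Fibroblast reference barcodes held 1467 and 697 CPM of Gsn, and macrophage reference barcodes 329 and 349 CPM. Heg1, a membrane mucin of cell junctions, had 185 and 226 CPM against 70.1 and 64.3 CPM, and Scara5, a ferritin receptor, 47.0 and 22.2 CPM against 13.3 and 4.7 CPM. Nhs, a regulator of actin and cell shape, S100a16, a calcium-binding protein, Atp2b4, a calcium pump, F2rl1, a protease receptor, Serpinb1a, an inhibitor of serine proteases, and Ccdc141 completed the 15 highest, with log2 ratios of 1.07 or more in each library. Of all genes outside the score, Gsn followed the summed score genes most closely over 10 deciles of the score in each library (Pearson r = 0.987 over 20 points), then Atp13a3 (0.985), Fgfr1 (0.979), Dlc1 (0.977) and Col5a1 (0.977). The points share libraries and the order that the score gives, so these r are descriptions.

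**Figure D3:**
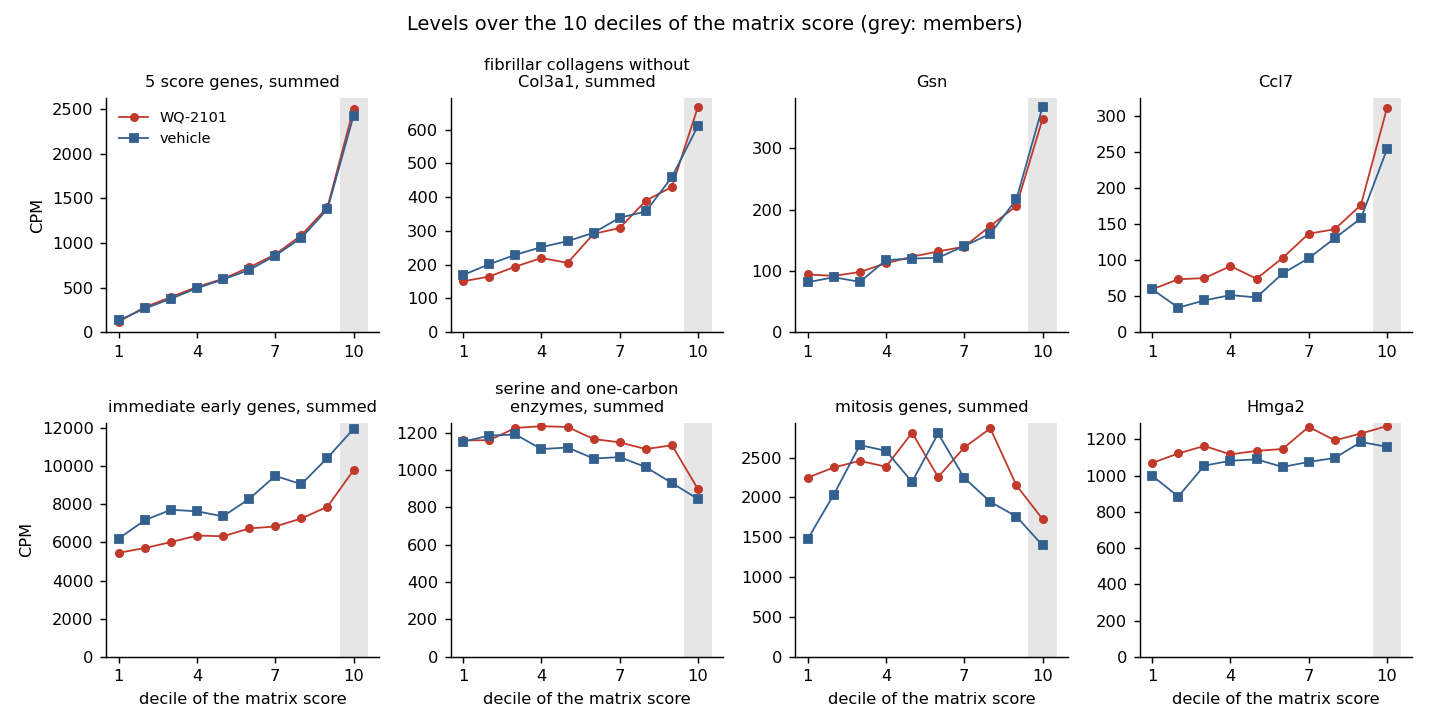
CPM in each of 10 deciles of the matrix score (decile 10, shaded, holds the members) for 8 readouts; red circles are the WQ-2101 library and blue squares the vehicle library, joined by lines. The score genes reach 2508 and 2428 CPM in decile 10, Gsn and Ccl7 climb with them in both libraries, and the mitosis sum is lowest in decile 10 in both, at 1729 and 1400 CPM.

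Cell cycle genes were lower in members. Of 21 mitosis genes, 8 were lower in WQ-2101 members and 15 in vehicle members, with medians of -0.48 and -0.67 and none higher. Cdc20, which activates the anaphase-promoting complex, had 45.2 CPM in WQ-2101 members and 35.4 CPM in vehicle members, against 79.8 and 82.7 CPM in the others. Aurka, a kinase of the spindle poles, had 23.4 and 17.4 CPM against 43.3 and 31.7 CPM, and Cenpf, a kinetochore protein, 125 and 131 CPM against 193 and 224 CPM. DNA replication genes moved less, with medians of -0.27 and -0.16. Ccnb1, Hmmr, Cdca8, Cenpe, Cenpa, Cenpw and Cks1b, all genes of division, were among the other 15 lowest, next to Nme1, Arg1, Pla2g12a and 2410006H16Rik. Lower calls depended on depth: with the other barcodes weighted to the UMI deciles of the members, 4 genes in place of 19 were lower in both libraries, although the medians of the mitosis list stayed below 0 under all 23 settings in each library.

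Enzymes of serine synthesis and one-carbon metabolism, the pathway that WQ-2101 is aimed at, were lower in members of both libraries, with medians of -0.46 and -0.34. In WQ-2101 5 of 15 passed and in vehicle 4 of 14, none higher, and Psat1, Mthfd2 and Shmt1 passed in both. Both medians stayed below 0 under all 23 settings but depended on depth. The WQ-2101 median was -0.20 with thinning to 3000 UMIs before scoring, and the vehicle median -0.21 at matched depth. Psat1 passed in both libraries under 15 of 23 settings. Phgdh, the target of WQ-2101, had 196 CPM in WQ-2101 members and 215 CPM in vehicle members, against 273 and 306 CPM in the others, and did not pass 1.5-fold. Psat1, the next enzyme of the pathway, had 82.6 and 52.8 CPM against 130 and 107 CPM, and the mitochondrial folate enzyme Mthfd2 79.1 and 54.0 CPM against 124 and 83.8 CPM. Between the libraries, Psat1 was 1.56 times as high in WQ-2101 members as in vehicle members (1.233 to 2.002), a log2 ratio of 0.60 that was 0.29 without the Dcn limit, and Phgdh was 0.910 times (0.802 to 1.03).

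Lipid and interferon genes filled out the pattern. Cholesterol synthesis genes had medians of 0.47 in WQ-2101 (6 of 18 higher) and 0.36 in vehicle (1 of 18, Hmgcs1). Hmgcs1, an early enzyme of the pathway, had 424 and 554 CPM in members against 247 and 345 CPM. Interferon gamma response genes had medians of 0.46 and 0.64, with 4 of 17 and 9 of 17 higher, and Iigp1 and Irf1 passed in both; Iigp1, an interferon-inducible GTPase, had 200 and 192 CPM against 97.6 and 81.1 CPM. Hypoxia and glycolysis genes did not stand higher in members, with medians of -0.21 and -0.16 in WQ-2101 and 0.09 and -0.04 in vehicle.

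**Figure D4:**
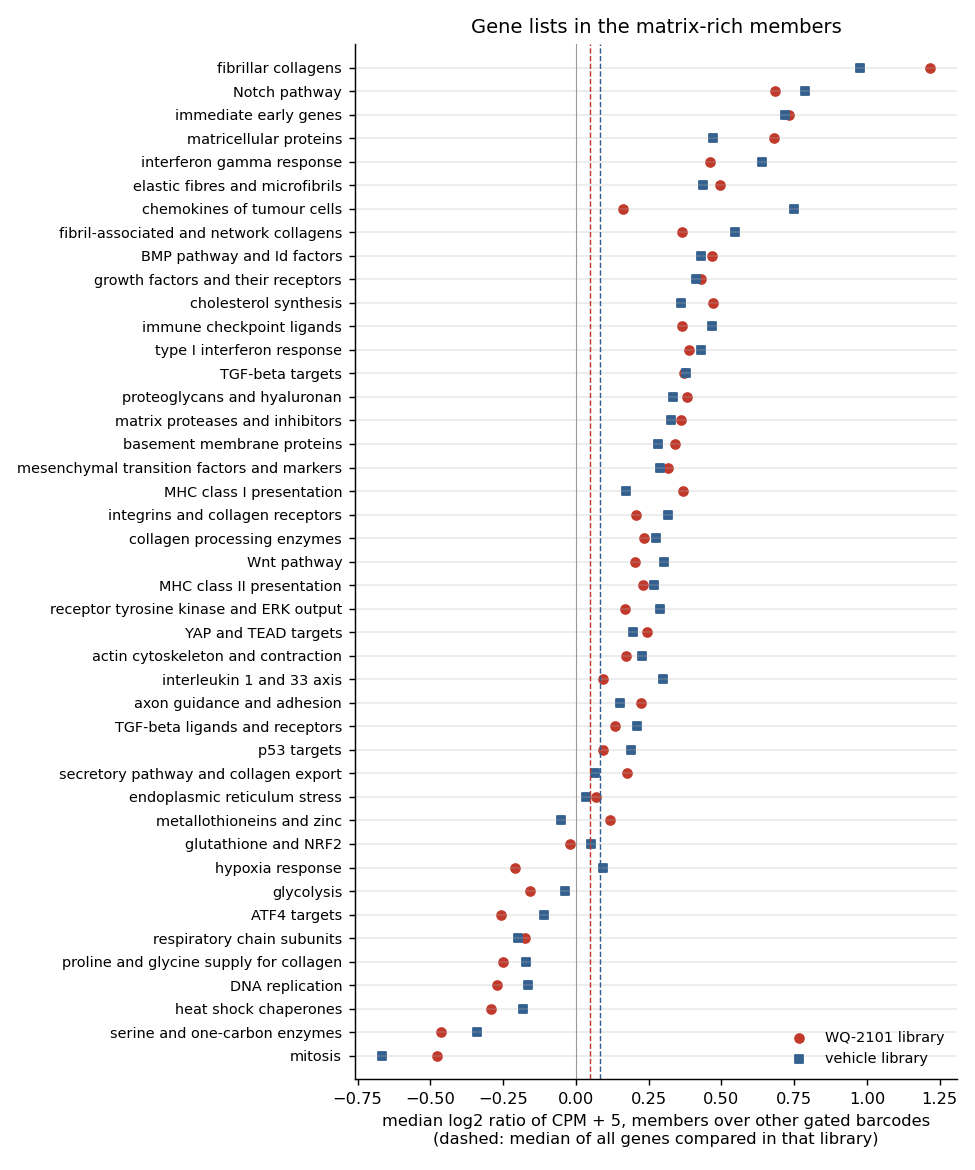
Median log2 ratio of CPM + 5, members over other gated barcodes, for each gene list with 4 or more measurable genes; red circles are the WQ-2101 library and blue squares the vehicle library. Dashed lines are the medians of all genes compared, 0.05 and 0.08; fibrillar collagens, Notch and immediate early genes are at the top and mitosis and serine enzymes at the bottom.

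Each programme was also read barcode by barcode, as the share of members among the highest gated barcodes for it. After thinning to 3000 UMIs, 33.3% of WQ-2101 members (28.1 to 38.8%) and 30.9% of vehicle members (23.2 to 39.4%) were in the top 10% of all gated barcodes for fibrillar collagens other than Col3a1, against 7.78 and 6.86% of the other barcodes. For immediate early genes the shares were 22.2 and 35.3% of members, against 5.21 and 14.6% of the others. For Notch genes they were 23.5 and 25.7%, against 8.65 and 7.94%. For mitosis 8.89 and 7.35% of members were in the top 10%, against 10.35 and 9.79% of the others. A minority of members was thus in the top 10% for any single one of these programmes. Whether the same members were high for several programmes was not computed. Thinning also adds sampling error: the score itself found 68.9% of WQ-2101 members and 64.0% of vehicle members again.

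WQ-2101 members were then set against vehicle members. Of 7210 genes, 150 were higher (2.08%) and 181 lower (2.51%) past 1.5-fold; with scaling by the median ratio in place of total UMIs the counts were 190 and 133. In the other gated barcodes 99 of 6912 were higher (1.43%) and 52 lower (0.752%). Of the 150 genes higher in members, 54 were also past 1.5-fold in the other barcodes and 10 had the opposite sign there. Of the 181 lower genes, 32 were also past it and 20 had the opposite sign. Without the limit on Dcn, 93 genes were higher and 37 lower in members. The vehicle members number 136, so that the lower count of barcodes limits how small a difference can be read.

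Treatment ratios of matrix genes went both ways. Summed, the 5 score genes were 2508 CPM in WQ-2101 members and 2428 CPM in vehicle members. Fibrillar collagens had a median treatment log2 ratio of 0.29, with 1 of 5 higher, and -0.25 with none past 1.5-fold when Dcn was not limited. Collagen VI and fibril-associated collagens outside the score had a median of -0.38, with Col7a1 lower of 4, and -0.25 with none past 1.5-fold without the limit. Matricellular genes had a median near 0, with Thbs1, Tnc and Ccn4 higher and Ccn1 and Spp1 lower. Tnc was 1.73 times as high in WQ-2101 members (1.43 to 2.11), a log2 ratio of 0.75 beside 0.77 in the other barcodes; without the Dcn limit it was 0.56, and no matricellular gene was past 1.5-fold higher and 3 were lower. Ccn1, an integrin ligand and YAP target, was lower, 139 CPM in WQ-2101 members and 258 CPM in vehicle members. Of the basement membrane genes, Col4a1 had 106 and 49.2 CPM and Col4a2 83.9 and 52.2 CPM in WQ-2101 and vehicle members, and these 2 of 8 passed, against none of 8 without the Dcn limit.

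Among collagens and matricellular genes, Col1a1 and Thbs1 were named for their treatment ratios in members. Col1a1 had a log2 treatment ratio of 1.30 in members (118 and 45.0 CPM) and 0.19 in the other barcodes, with a UMI in 43.5% of WQ-2101 members and 29.4% of vehicle members; 27.9% of its WQ-2101 UMIs came from 5 barcodes. Without the Dcn limit its ratio in members was -0.40. Thbs1, an activator of latent TGF-beta, had 27.6 CPM in WQ-2101 members and 4.20 CPM in vehicle members, a log2 ratio of 1.83, against -0.38 in the other barcodes. Only 24 of the 315 WQ-2101 members had a UMI of it, and 5 of them held 82.7% of its 110 UMIs. Leaving out barcodes with 10 or more Col1a1 UMIs, an alternative chosen after seeing the data, gave 0.25 for Thbs1 and 0.90 for Col1a1, and without the Dcn limit Thbs1 stood at -0.18.

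The remaining named treatment genes mostly moved the same way in all gated barcodes. Slc7a2, a transporter of arginine and lysine, had 194 CPM in WQ-2101 members and 36.6 CPM in vehicle members, 5.29 times (4.08 to 6.99), with log2 ratios of 2.26 in members and 2.09 in the others. In WQ-2101 members 45.7% had a UMI of it and in vehicle members 13.2%, where 5 barcodes held 75.4% of its UMIs. Slurp1, a small secreted protein of epithelia, had 97.2 and 26.4 CPM, with 1.70 and 1.998. Cryab, a small heat shock protein, had 114 and 37.2 CPM, with 1.49 and 1.198, and Pdzrn3, a ubiquitin ligase, 58.5 and 18.0 CPM, with 1.46 and 1.39. Adamts9, a protease of proteoglycans, had 110 UMIs in WQ-2101 members and 4 in vehicle members, with log2 ratios of 2.14 and 1.02, and 0.54 without the Dcn limit. The antisense gene 9530026P05Rik, which overlaps the start of Adamts9 on chromosome 6, had 48.2 and 15.6 CPM; reads of overlapping genes may be divided between them. Zbtb7c and the non-coding Gm26510 were the other higher named genes, at log2 ratios of 1.55 and 1.75 in members and 0.55 and 0.67 in the others. Without the Dcn limit, Slc7a2, Slurp1, Pdzrn3, Zbtb7c, Gm26510 and 9530026P05Rik kept ratios of 0.75 to 1.52 in members, and Cryab had 0.51.

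Named genes lower in WQ-2101 members included Tmem267 (13.8 CPM, against 59.4 CPM in vehicle members) and Fam107b (78.3 against 185 CPM). Cp, the copper-carrying ferroxidase, had 8.29 CPM against 29.4 CPM, and Tnfaip6, a protein that links hyaluronan chains, 26.6 CPM against 64.8 CPM. The others were Lsmem1, Hist1h2ac, Gsg1, Amigo2 and the non-coding Gm26887 and Gm12648, with log2 ratios of -1.11 to -1.74. All 10 were lower in the other gated barcodes as well, by log2 ratios of -0.45 to -2.11. Without the Dcn limit their ratios in members ran from -0.26 to -1.26, and Fam107b, Tnfaip6, Hist1h2ac, Gsg1 and Amigo2 were no longer past 1.5-fold.

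**Figure D5:**
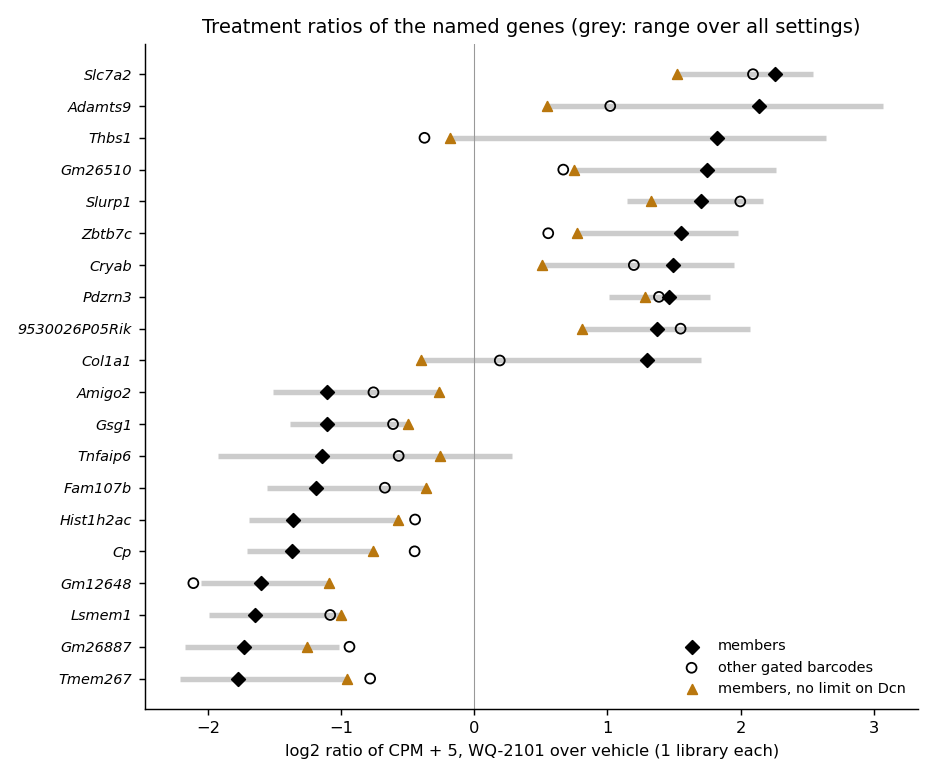
Log2 ratio of CPM + 5, WQ-2101 over vehicle, for the 20 named treatment genes in members (black diamonds), in the other gated barcodes (open circles) and in members chosen without the limit on Dcn (orange triangles); the grey bar spans the settings tried. Thbs1, Col1a1 and Tnfaip6 cross 0 between settings, whereas Slc7a2 stays at 1.52 or more.

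MHC class II genes were higher with WQ-2101 in members and in the others. For MHC class II genes the median log2 treatment ratio was 1.06 in members and 1.24 in the others, with 5 of 6 higher in members; Cd74, the class II chaperone, had 201 CPM in WQ-2101 members and 101 CPM in vehicle members, and H2-Ab1 132 and 51.6 CPM. Macrophage markers, which share these transcripts, were 187 and 199 CPM in WQ-2101 and vehicle members and 346 and 233 CPM in the others, where C1qa, C1qb and C1qc were past 1.5-fold higher with WQ-2101; their part in the result was not tested. Without the Dcn limit the class II median in members was 1.34, with 6 of 6 higher. Of the MHC class I genes, 3 of 13 were higher in members (Tap1, H2-M3, Psmb9) and none of 10 in the others, with medians of 0.26 and 0.23. Of 14 glutathione and NRF2 genes, 4 were lower in WQ-2101 members, Hmox1, Me1, Srxn1 and Gclc, and without the Dcn limit none of 13 passed. The list median was -0.32 in members and -0.26 in the others. Gclc, the rate-limiting subunit of glutathione synthesis, had 49.5 CPM in WQ-2101 members and 78.6 CPM in vehicle members. Of the immediate early genes, Fosb, Fos and Btg2 were lower; Fosb had 296 CPM in WQ-2101 members and 638 CPM in vehicle members. Of 15 hypoxia genes, Ddit4, Egln3 and Ankrd37 were higher in WQ-2101 members, with a list median of 0.36 beside 0.53 in the other barcodes; without the Dcn limit 5 of 15 were higher and the median was 0.33.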

How the data were processed

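Both deposited matrices hold raw UMI counts per gene and barcode, made by the authors; per the file headers, Cell Ranger 7.2.0 wrote them, while the notes of the submitters on processing give GRCm38 and version 2.2.2 of that tool. Gene positions are from GENCODE vM21, which matched 32235 of 32285 identifiers. The libraries held a median of 8160.5 (WQ-2101) and 10919.5 (vehicle) UMIs per barcode, and the gated groups 1665672 UMIs or more each. UMIs were summed per class and library and scaled to CPM (Python 3.11.15, numpy 2.4.6, scipy 1.17.1); log2 ratios use CPM + 5. Intervals are exact (Poisson, Clopper-Pearson, conditional for ratios). Only the conditional interval was tried on simulated counts, which held no differences between barcodes of a class. The intervals do not cover such differences. Doublets were not called; Ptprc, Dcn and Lum exclude some, and a UMI ceiling at the 95th percentile and a gate on 9 further genes were tried.

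The members and gene lists were chosen with earlier results of these data known. Named genes are the 15 highest and 15 lowest by the log2 ratio nearest 0 of both libraries (members against others), the 10 highest and 10 lowest treatment ratios in members whose interval excludes 1, the 5 highest and 5 lowest differences of treatment ratios, the 5 score genes, up to 4 per gene list, and the 5 genes closest to the score over its deciles. Score, gate and mitochondrial genes are left out of counts.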

Additional observations from a re-analysis of the deposited data

Results flagged for a closer look

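Among the genes named for their treatment ratio or for its difference between the classes, 5 had a treatment log2 ratio of opposite sign in matrix-rich members and in the other gated barcodes; with 1 library per treatment these differences were not tested. Thbs1 stood at 1.83 in members and -0.38 in the others, and Haus1, a subunit of the augmin complex of the spindle, at 0.94 and -0.11. Cxcl9, a chemokine for T cells, stood at -0.82 in members (34.9 CPM in WQ-2101, 65.4 CPM in vehicle) and 0.79 in the others, and 5 barcodes held 85.3% of its UMIs in vehicle members. Gm4951 stood at -0.99 and 0.28, and 5 barcodes held 71.4% of its UMIs in vehicle members. Hmox1, the heme oxygenase, stood at -1.04 in members and at 0.00 (just above 0) in the others, and 5 barcodes held 68.4% of its UMIs in vehicle members. Without the Dcn limit the difference between members and others was 0.11 for Thbs1, 0.02 for Haus1, -0.13 for Cxcl9, -0.12 for Gm4951 and -0.59 for Hmox1, and Cxcl9 stood at 0.82 in members and 0.95 in the others.

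Barcodes outside the gate, with 10 or more UMIs of Dcn and at most 1 of Lum, also carried the score genes, at 1056 CPM in WQ-2101 and 1354 CPM in vehicle. They numbered 984 in WQ-2101 and 1646 in vehicle. The other gated barcodes held 688 and 666 CPM.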

How the results depend on the processing

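No paired analysis was possible because each treatment has 1 library. Each alternative changed 1 choice, except the share without the Dcn limit and with thinning, which changed 2; the alternatives on Dcn and on Col1a1 were chosen after seeing the data. The share ratio of 1.08 was 1.39 with 6000 UMIs or more and 0.687 without the Dcn limit. Genes higher in members in both libraries, 162, numbered 271 for the top 5%, 100 for the top 20%, 93 with a pseudocount of 20 and 273 without the Dcn limit. Lower genes, 19, numbered 89 and 3 for the top 5% and 20%, 10 after thinning, 37 without the logarithm, 7, 46, 41 and 11 without Col3a1, Col6a1, Col6a2 or Il1rl1 in the score, 59 with 9 further genes at 0, 12 with UMIs split between scoring and counting, 29 and 1 with pseudocounts of 1 and 20, 30 from 5 CPM, 33 with median ratio scaling, 4 at matched depth and 52 without the Dcn limit. Genes higher in WQ-2101 members, 150, numbered 371 for the top 5%, 300 with Dcn and Lum at 0, 368 with the 9 genes at 0, 292 with split UMIs, 65 with a pseudocount of 20, 304 from 5 CPM and 93 without the Dcn limit. Lower ones, 181, numbered 419 and 101 for the top 5% and 20%, 287 with Dcn and Lum at 0, 578 with the 9 genes at 0, 310 with split UMIs, 277 and 59 with pseudocounts of 1 and 20, 366 from 5 CPM, 348 with barcodes weighted alike and 37 without the Dcn limit. Signs turned for Col1a1 (-0.40 in members, -0.20 for its difference) and Thbs1 (-0.18) without the Dcn limit, for Tnfaip6 (0.28) with the 9 genes at 0 and for the Igha difference (0.55) with Dcn and Lum at 0; the cause was not tested. Of the other values, 4104 stayed within their tolerance and 346 did not. For genes the tolerance came from the counting interval, and a member ratio whose sign differed between the libraries was counted as moved. For gene lists it was a fixed log2 difference, which is not an error. Counts of lower genes in members and all treatment counts rest on the number of barcodes, 136 in vehicle.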

Other observations

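Immunoglobulin transcripts were the genes whose treatment ratio was lowest in members relative to the other barcodes. Igkc had 15.1 CPM in WQ-2101 members and 3.60 CPM in vehicle members, against 81.1 and 4.83 CPM in the other barcodes of those libraries. Igha had 9 UMIs in WQ-2101 members and 0 UMIs in vehicle members, where 3 UMIs would be 1.80 CPM. In the other barcodes Igha had 25.5 and 1.80 CPM. B cell markers summed to 1.76 CPM in WQ-2101 members and 0 CPM in vehicle members.

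Keratin 14 differed between treatments and between members and others in the vehicle library. Krt14, a keratin of basal epithelium, had 284 CPM in WQ-2101 members and 186 CPM in vehicle members, against 248 and 112 CPM in the other barcodes. After thinning, 20.3% of WQ-2101 members and 7.35% of vehicle members were in the top 10% of gated barcodes for the keratin list, against 12.2 and 3.16% of the others.

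Without the limit on Dcn, members had 1479 CPM of Col3a1 in WQ-2101 and 2033 CPM in vehicle, and 13.5 and 45.8 CPM of Postn; of these members, 29.9% in WQ-2101 and 11.1% in vehicle also met the limit. Dcn itself stood at 452 and 872 CPM in them.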
